A study of Mus musculus with 13 samples.

Results

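Matrix metalloproteinases (MMPs), their tissue inhibitors (TIMPs) and the ADAMTS proteinases were examined in full-thickness back skin of 4-day-old mice (P4). Members were taken by symbol, as every gene named Mmp or Timp with a digit or named Adamts with any ending, which gave 51 of the 49315 genes in the count tables. These comprised 23 MMPs, 4 TIMPs, 19 ADAMTSs and 5 ADAMTS-like genes. The 43 members with at least 10 counts in 3 or more of the 6 libraries are reported, namely 15 MMPs and all TIMPs, ADAMTSs and ADAMTS-like genes.

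The compared animals were 3 mice of the genotype K14Cre+ Kctd1 fl/fl Kctd15 fl/fl, called DKO here, and 3 WT littermates. In the DKO mice the keratin 14 promoter drives Cre in keratinocytes, so that dermal cells, muscle and vessels of the same skin keep both genes. The samples hold all of these cells together, and fewer cells of a type and less RNA per cell cannot be told apart in them. Libraries held 11263863 to 17643043 counts, with DKO 1 the shallowest. The normalized counts of the whole Kctd15 gene (WT 736 to 763, DKO 1131 to 1509) and of Kctd1 (WT 410 to 442, DKO 506 to 985) were higher in DKO and do not check the deletion, since only 1 exon of each gene is floxed and the counts cover the whole gene. Xist and Y-linked transcripts showed 1 female in each group, WT 1 and DKO 3. Whole-skin identity was checked on markers. Keratinocyte, dermal fibroblast, hair follicle and skeletal muscle lists were all detected in every library.

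MMPs are zinc-dependent proteinases that cut collagens, gelatin and many other extracellular proteins. Most are secreted or displayed as inactive proforms and are activated by other proteinases, and TIMPs bind the active enzymes. ADAMTSs are secreted relatives with thrombospondin repeats, some of which trim procollagens or cleave proteoglycans such as versican, whereas ADAMTS-like proteins share the ancillary domains but lack the proteinase domain. In skin these families are known for matrix turnover in growth, wound repair and hair cycling.

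All 8 members below the count rule lie in 1 gene cluster on chromosome 9 (GRCm38, from 7272514 to 7699585), where 2 of 10 MMP genes were reported. They comprise the collagenases Mmp1a, Mmp1b, Mmp8 and Mmp13, the stromelysin Mmp10, matrilysin Mmp7, metalloelastase Mmp12 and the enamel enzyme Mmp20. Their highest count in any library was 13, for Mmp20, and Mmp1a was at 0 in all 6 libraries. Mmp20, with 10 or more counts in 2 libraries, stood just outside the rule, and Mmp3, with 3 libraries, just inside it, followed by Mmp9, Adamts13 and Adamtsl2 with 4. The collagenases were thus at or near the detection limit in both genotypes, and a difference between the groups was not detectable for them at this depth.

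Promoter sequences are shown because most promoters of this cluster, 8 of whose 10 genes were below the count rule, differed in motifs from the available promoters of other members. Mmp27, with 46 to 94 counts in every library, was the best detected gene of the cluster. RefSeq promoters of GRCm38.p6 were available for 36 of the 51 members. Those without one were all reported members outside the cluster, Mmp2, Mmp9, Mmp16, Adamts5 and Adamts15 among them. The 250 bases before the start were searched on both strands for the AP-1 site TGANTCA, the TATA box TATAAA and the GC box GGGCGG. Of the 10 cluster promoters, 7 held both an AP-1 site and a TATA box, against 1.32% of 27025 promoters, and 0 held a GC box. The promoters of Mmp8, Mmp12 and Mmp27 held none of the 3 motifs. Of the 26 promoters of reported members outside the cluster, 0 held an AP-1 site, 3 held a TATA box and 20 held a GC box, against 6.87%, 13.0% and 32.9% of all promoters. Median GC content was 40.2% in the cluster and 64.8% in those 26. The last 100 bases before the start are given 5′ to 3′ in lower case, with any of the 3 motifs in capitals, for 4 cluster genes (Mmp3 at chr9:7445722-7445821 on the plus strand, Mmp10 at chr9:7502242-7502341 on the plus strand, Mmp13 at chr9:7272414-7272513 on the plus strand, Mmp1a at chr9:7464041-7464140 on the plus strand).
Mmp3: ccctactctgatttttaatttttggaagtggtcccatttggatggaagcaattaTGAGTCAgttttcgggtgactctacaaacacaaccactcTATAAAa
Mmp10: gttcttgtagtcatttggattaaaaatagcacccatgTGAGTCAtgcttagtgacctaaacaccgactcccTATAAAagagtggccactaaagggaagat
Mmp13: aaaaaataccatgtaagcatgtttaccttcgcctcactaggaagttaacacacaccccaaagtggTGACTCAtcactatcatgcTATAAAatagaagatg
Mmp1a: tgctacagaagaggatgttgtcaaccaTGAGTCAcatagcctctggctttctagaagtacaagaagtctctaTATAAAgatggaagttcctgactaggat
In each of these 4 sequences an AP-1 site precedes a TATA box. The following 6 come from members outside the cluster whose values in every library are given below (Mmp14 at chr14:54431498-54431597 on the plus strand, Mmp11 at chr10:75932503-75932602 on the minus strand, Timp1 at chrX:20870066-20870165 on the plus strand, Adamts9 at chr6:92943535-92943634 on the minus strand, Adamts17 at chr7:66839635-66839734 on the plus strand, Adamts3 at chr5:89883335-89883434 on the minus strand).
Mmp14: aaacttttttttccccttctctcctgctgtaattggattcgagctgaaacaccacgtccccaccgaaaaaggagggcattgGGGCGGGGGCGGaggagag
Mmp11: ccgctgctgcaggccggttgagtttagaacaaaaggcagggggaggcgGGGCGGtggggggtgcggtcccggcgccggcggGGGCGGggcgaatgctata
Timp1: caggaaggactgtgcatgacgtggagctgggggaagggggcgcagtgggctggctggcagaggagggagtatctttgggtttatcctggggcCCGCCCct
Adamts9: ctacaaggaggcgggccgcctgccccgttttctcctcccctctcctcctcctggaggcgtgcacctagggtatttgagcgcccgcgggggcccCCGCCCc
Adamts17: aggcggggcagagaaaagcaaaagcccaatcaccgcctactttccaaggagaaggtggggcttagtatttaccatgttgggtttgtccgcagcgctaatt
Adamts3: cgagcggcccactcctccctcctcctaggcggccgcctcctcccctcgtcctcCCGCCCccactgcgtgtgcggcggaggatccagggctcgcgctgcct
None of these 6 held an AP-1 site or a TATA box in the stretch shown, and the Adamts17 stretch held none of the 3 motifs. A match of letters is a description and does not show that a factor binds there.

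Levels were compared between genes per length, as counts per kilobase scaled to the same total in every library (as in TPM). Timp2 had the highest mean level over the 6 libraries (187), followed by Mmp2 (153), Mmp14 (149), Timp3 (94.6), Adamts1 (54.1), Adamts12 (40.7), Adamts2 (38.7) and Adamts5 (31.3). Mmp2 and Mmp14 could not be ordered, as the range of Mmp2 (132 to 185) overlapped that of Mmp14 (125 to 177). Mmp2 made up 36.7% to 40.2% and Mmp14 34.4% to 40.1% of the summed MMP level, and Timp2 60.4% to 67.5% of the summed TIMP level. The products of these 3 leading genes are known to act together, as membrane-bound MMP14 activates proMMP2 with TIMP2 as a bridge. The other gelatinase, Mmp9, was near the bottom, with levels of 0.399 to 1.72.

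**Figure D1:**
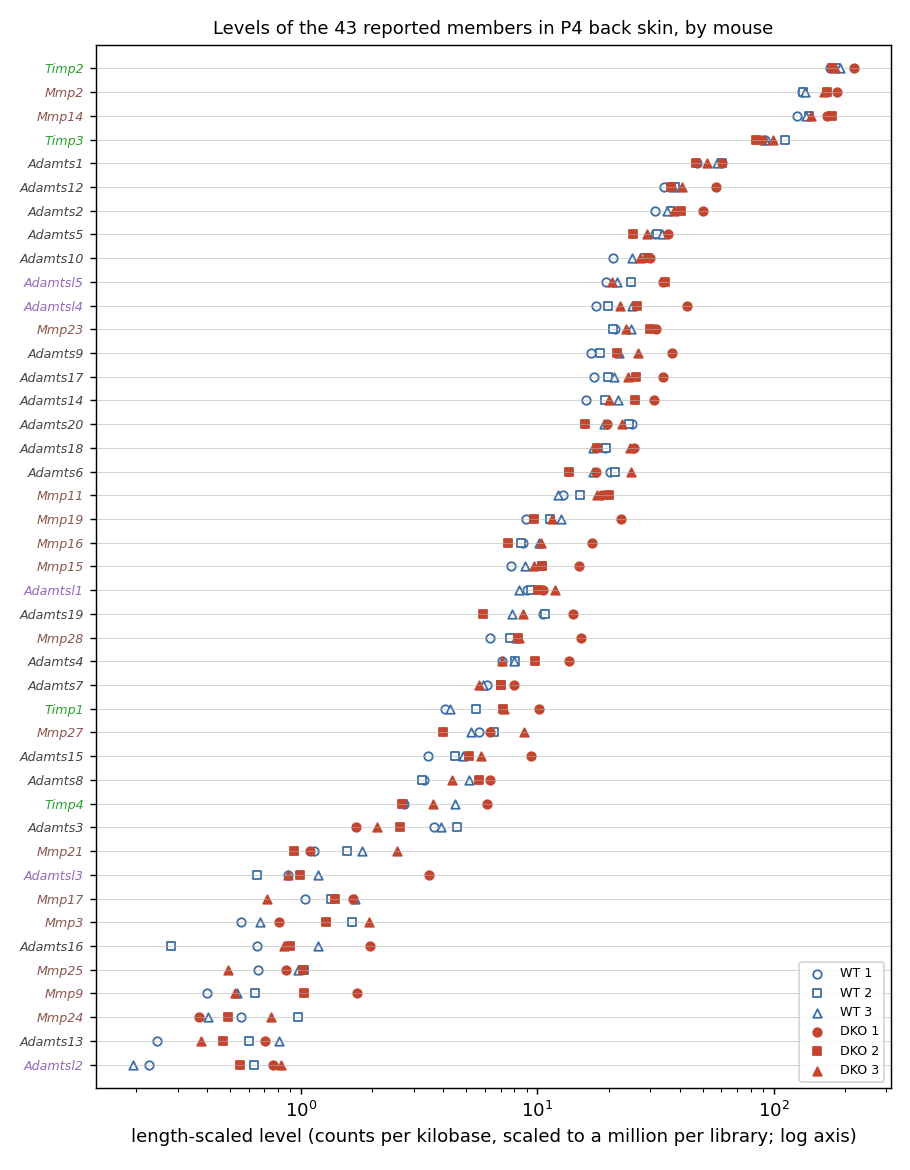
Length-scaled level of each of the 43 reported members in every mouse on a log axis, ordered by mean level, with open symbols for WT and filled symbols for DKO. Timp2, Mmp2 and Mmp14 lead, and the lowest members lie near or below 1, where single libraries spread widely.

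Expression of the 43 members was then compared between DKO and WT by edgeR's quasi-likelihood test, fitted on 20168 genes with Benjamini-Hochberg adjustment. No member passed the adjusted threshold of 0.05, with or without the requirement of a log2 fold change over 1 (0 of 43, against 0.0694% of all genes tested). The smallest adjusted p of a member was 0.342 (Adamts17 and Adamts9), and DESeq2 also gave 0 members, against 0.999% of all genes at the adjusted threshold alone and 0.732% with the fold requirement. At an unadjusted p under 0.05, 11 of 43 members passed (25.6%), against 7.5% of all genes. Of these, 10 were higher in DKO (background 4.96%) and 1, Adamts3, was lower (background 2.54%). The log2 fold change was above 0 for 32 members (74.4%), against 52.9% of all genes, and its median was 0.32 against 0.02. In 13 members every DKO mouse was above every WT mouse (background 7.24%), and in 1 every DKO mouse was below (background 5.96%). Adamtsl2, counted among the 13 and the 32, met the count rule through its DKO libraries. No set test was made, and no single member can be called on these data.

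**Figure D2:**
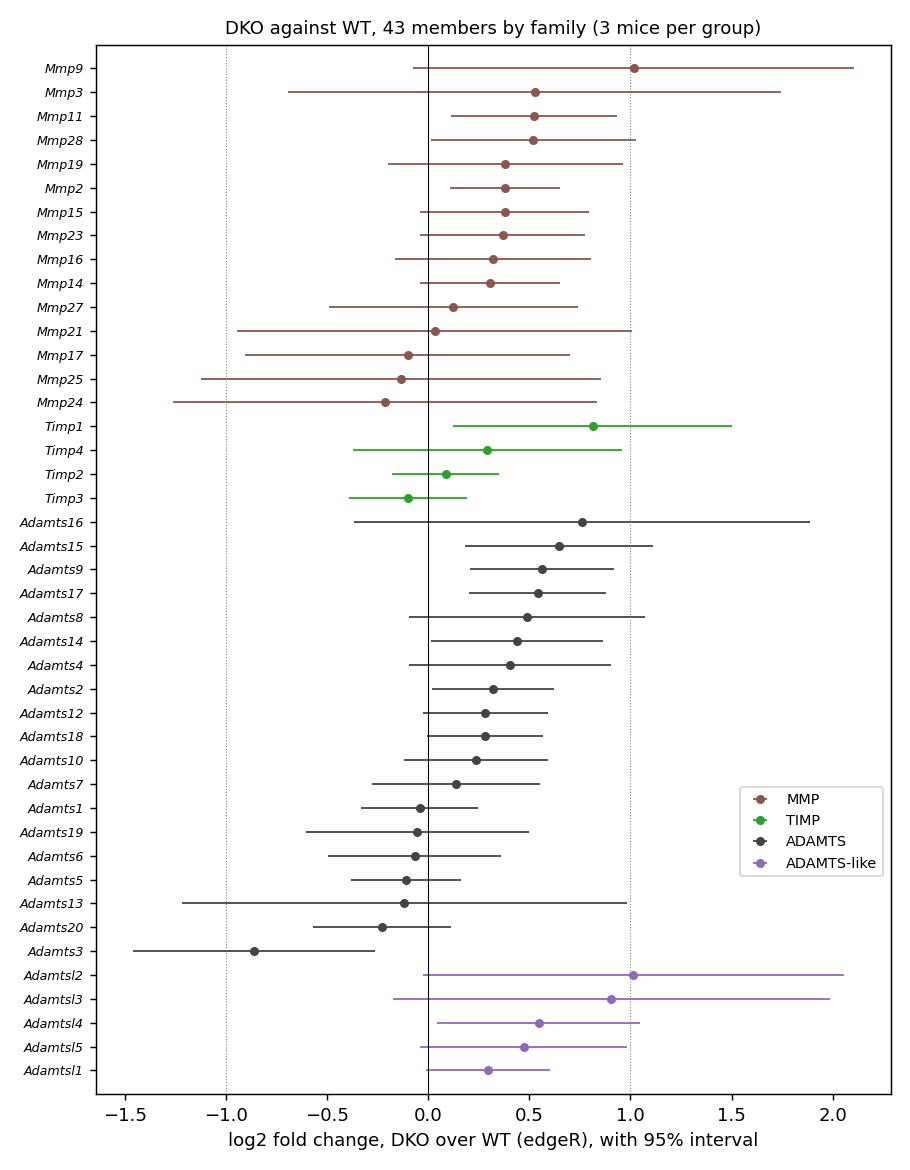
Log2 fold change of DKO over WT for the 43 members with its 95% interval from edgeR, coloured by family, with dotted lines at a log2 fold change of 1 in each direction. Most points lie right of 0, all 5 ADAMTS-like genes among them, and Adamts3 is the lowest, at −0.86.

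Among the gelatinases, Mmp2 (chr8:92827291-92853420, ENSMUSG00000031740), which degrades denatured and basement membrane collagens, had normalized counts of 2246, 2187 and 2274 in WT and 2822, 3251 and 2655 in DKO. The groups did not overlap, and the WT mice lay within a narrow band. The log2 fold change was 0.38 ± 0.12 (SE, n = 3 and 3), with an edgeR adjusted p of 0.429. Mmp9, a gelatinase of neutrophils, macrophages and keratinocytes, had 7.13, 11.03 and 9.41 normalized counts in WT and 27.6, 21.0 and 8.96 in DKO. DKO 1 and DKO 2 were above all WT mice, whereas DKO 3 lay among them (log2 fold change 1.02 ± 0.49, edgeR adjusted p = 0.712). The neutrophil marker list summed to 9.36 to 15.6 in WT and 11.1 to 22.8 in DKO on the composition-normalized scale. Only 2 of its 9 genes had enough counts to be tested, with log2 fold changes of −0.23 and 0.47, and Ly6g was at 0 in all libraries. The sum thus rests largely on genes of low count. The cell source of Mmp9 was not tested.

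The stromelysin group was represented by Mmp11 and Mmp3. Mmp11 (stromelysin-3, chr10:75923222-75932502, ENSMUSG00000000901), a furin-activated enzyme of stromal cells, had 167, 190 and 156 normalized counts in WT and 220, 297 and 222 in DKO. Every DKO mouse was above every WT mouse (log2 fold change 0.53 ± 0.18, edgeR adjusted p = 0.486). Mmp3 had normalized counts from 5.10 to 16.9, and the groups overlapped. Its log2 fold change of 0.53 had a 95% interval of −0.69 to 1.75.

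All 6 membrane-type MMPs were reported. Mmp14, which cuts fibrillar collagen at the cell surface, had 2717, 2963 and 2929 normalized counts in WT and 3269, 4382 and 2993 in DKO. DKO 3 was close to the highest WT mouse, and DKO 2 stood above the others (log2 fold change 0.31 ± 0.16, edgeR adjusted p = 0.749). Without DKO 2 the Mmp14 value was 0.13. Mmp15 and Mmp16 had log2 fold changes of 0.38 and 0.32, and Mmp17, Mmp24 and Mmp25 of −0.10, −0.21 and −0.13, none at an unadjusted p under 0.05. The last 3 turned positive when single mice were left out, up to 0.21, 0.18 and 0.16. The 5 reported members of the remaining MMPs all had positive values, from 0.03 (Mmp21, negative once sex was a term) to 0.52 (Mmp28). Mmp28, an epidermal MMP known as epilysin, reached an unadjusted edgeR p of 0.0451, with 123 to 156 normalized counts in WT and 156 to 268 in DKO. Its groups were separated only narrowly, between WT 3 and DKO 3, and the log2 fold change was 0.26 without DKO 1. Mmp19 and Mmp28 share 23.1% and 12.0% of their exon length with other genes, so that their counts are less certain.

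Of the 4 TIMPs, Timp1 (chrX:20870166-20874735, ENSMUSG00000001131), a broad MMP inhibitor induced in injured and inflamed tissue, had 18.3, 23.8 and 18.8 normalized counts in WT and 40.8, 36.4 and 30.9 in DKO. All DKO mice were above all WT mice. The log2 fold change was 0.81 ± 0.31, with an edgeR adjusted p of 0.539. Timp2, the main TIMP transcript here, had 3418, 3474 and 3688 normalized counts in WT and 3878, 3957 and 3403 in DKO. The groups overlapped, and the 95% interval of the log2 fold change was −0.18 to 0.35 (estimate 0.09, edgeR adjusted p = 0.946). Timp3, which binds to the matrix and also inhibits ADAMTSs, had 3774, 4433 and 3708 normalized counts in WT and 3310, 3932 and 3884 in DKO, and the groups overlapped. Its interval was −0.39 to 0.19 (estimate −0.10, adjusted p = 0.944), and 21.3% of its exon length is shared with Syn3, in whose intron it lies on the other strand. Timp4 had 81.5, 77.2 and 131 normalized counts in WT and 164, 90.5 and 103 in DKO, with overlap (log2 fold change 0.29 ± 0.30, adjusted p = 0.930). The Timp4 value rested on DKO 1, without which it was −0.01.

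Ratios within a library do not depend on how libraries are scaled. The level of Mmp2 relative to Timp2 was 0.759, 0.728 and 0.713 in WT and 0.841, 0.950 and 0.902 in DKO. The groups did not overlap. The summed MMP level relative to the summed TIMP level was 1.23, 1.20 and 1.25 in WT and 1.499, 1.64 and 1.40 in DKO, also without overlap. Mmp14 relative to Timp2 did overlap, at 0.720, 0.773 and 0.720 in WT and 0.764, 1.004 and 0.797 in DKO. These ratios were computed after the values of their members were known, and they are given with no test.

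**Figure D3:**
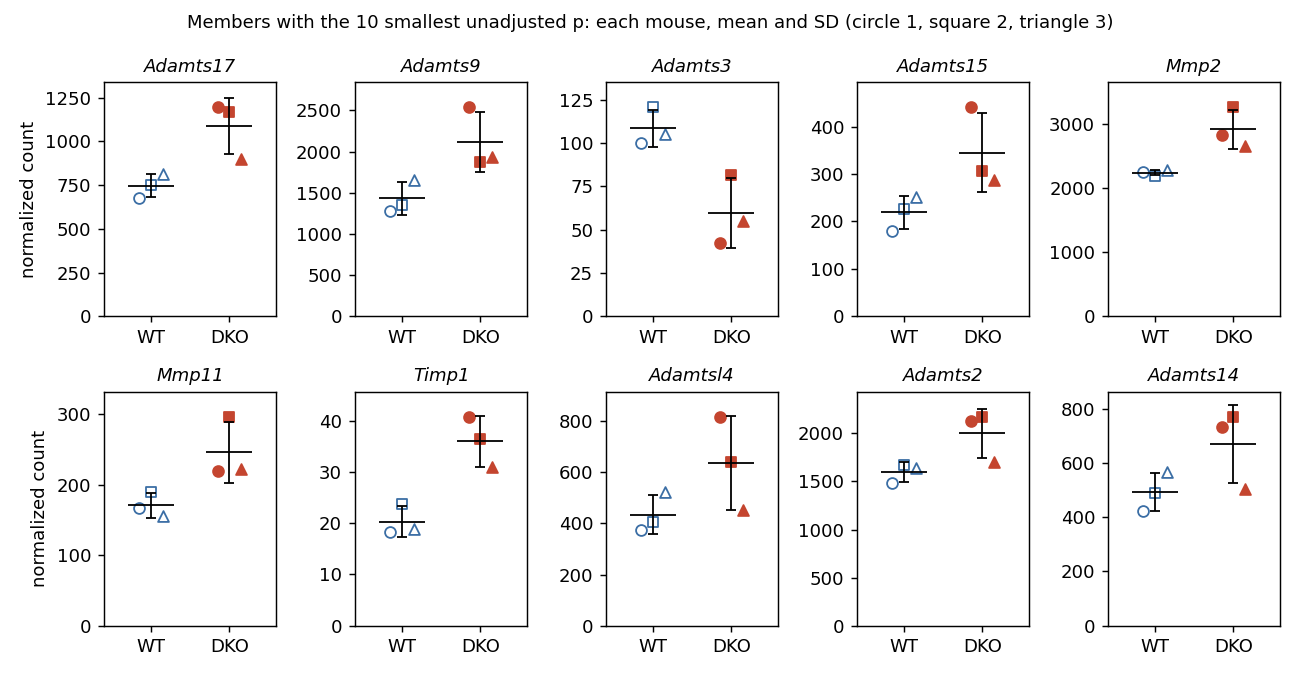
Normalized counts in each mouse for the 10 members with the smallest unadjusted edgeR p, with group mean and SD (n = 3 each) and vertical axes from 0. In 8 of the 10 the groups are apart, against 13.2% of all genes tested, and Adamts3 alone is lower in DKO. The 10 were chosen by p in these same mice, which favours separated groups, so the count is no further support for a difference.

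The 3 procollagen N-proteinases, which remove the amino-terminal propeptide of fibrillar procollagens, were split in direction. Adamts3 (chr5:89677087-89883334, ENSMUSG00000043635), which also activates the lymphangiogenic factor VEGF-C, had 99.9, 121 and 105 normalized counts in WT and 42.1, 81.6 and 54.8 in DKO. Every DKO mouse was below every WT mouse. The log2 fold change was −0.86 ± 0.27, with an unadjusted edgeR p of 0.00957 and an adjusted p of 0.412. Adamts2, the main enzyme of this kind in skin, had 1483, 1673 and 1645 normalized counts in WT and 2126, 2173 and 1704 in DKO. All DKO mice were above all WT mice, DKO 3 by the least (log2 fold change 0.32 ± 0.13, edgeR adjusted p = 0.625). Adamts14 had 424, 491 and 565 normalized counts in WT and 734, 770 and 504 in DKO, so that DKO 3 fell among the WT mice (log2 fold change 0.44 ± 0.19, adjusted p = 0.647). In length-scaled levels Adamts2 exceeded Adamts3 by 8.07 to 9.09 times in WT and by 15.5 to 29.4 times in DKO, a ratio chosen after the values were seen.

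Proteoglycan-cleaving ADAMTSs, which cut versican and aggrecan, comprised 7 members, of which 4 had a log2 fold change above 0. Adamts9 (chr6:92772699-92943492, ENSMUSG00000030022), a versicanase of developing skin, had 1282, 1355 and 1655 normalized counts in WT and 2537, 1871 and 1936 in DKO. The groups were apart, and DKO 1 was highest (log2 fold change 0.56 ± 0.16), with an unadjusted edgeR p of 0.00584 and an adjusted p of 0.342. Its exon length overlaps other genes over 12.0%. Adamts15, also a versicanase, had 180, 226 and 251 normalized counts in WT and 440, 306 and 288 in DKO, again without overlap (log2 fold change 0.65 ± 0.21, edgeR adjusted p = 0.426). Its neighbour Adamts8, 20110 bases away on chromosome 9, had a log2 fold change of 0.49 ± 0.26 with overlapping groups. The 2 most abundant enzymes of this group had estimates near 0. Adamts1 had 1271, 1561 and 1513 normalized counts in WT and 1457, 1432 and 1332 in DKO, with a 95% interval of −0.33 to 0.24. Adamts5 had 1285, 1266 and 1361 in WT and 1315, 1185 and 1133 in DKO, with an interval of −0.38 to 0.16. The groups overlapped in both genes, which are neighbours on chromosome 16. Adamts20, needed for melanoblast survival and coat colour, had a log2 fold change of −0.23 ± 0.15, and Adamts4 of 0.40 ± 0.22.

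Among the other ADAMTSs, Adamts17 (chr7:66839735-67153171, ENSMUSG00000058145), a proteinase linked to fibrillin microfibrils, had the smallest p of all members. It had 679, 749 and 812 normalized counts in WT and 1195, 1167 and 902 in DKO. The groups did not overlap (log2 fold change 0.54 ± 0.15), with an unadjusted edgeR p of 0.00517 and an adjusted p of 0.342. Adamts18 ranged from 868 to 993 in WT and from 1047 to 1210 in DKO, with a log2 fold change of 0.28 ± 0.13. Adamts6 and Adamts10, which act on fibrillin and cell adhesions, had −0.07 ± 0.19 and 0.24 ± 0.16, and Adamts19 had −0.05 ± 0.25. Adamts16 had 0.76 ± 0.50 at 9.34 to 60.5 normalized counts. Of the COMP-cleaving pair, Adamts12 had 1081, 1165 and 1162 normalized counts in WT and 1606, 1314 and 1229 in DKO, without overlap (log2 fold change 0.28 ± 0.14, edgeR adjusted p = 0.726, and 0.15 without DKO 1). Adamts7 had 0.14 ± 0.19. Adamts13, which cleaves von Willebrand factor and is made mainly in liver, stood at 6.12 to 19.7 normalized counts, with a log2 fold change of −0.12 ± 0.49.

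All 5 ADAMTS-like genes had positive log2 fold changes, with a median of 0.55. Adamtsl4, which supports fibrillin fibres, had 375, 407 and 523 normalized counts in WT and 818, 640 and 451 in DKO. DKO 3 lay within the WT range (log2 fold change 0.55 ± 0.22, edgeR adjusted p = 0.603), and the value was 0.31 without DKO 1. Adamtsl1 and Adamtsl2 had every DKO mouse above every WT mouse, with log2 fold changes of 0.29 ± 0.14 and 1.01 ± 0.47, the latter at only 7.70 to 31.9 normalized counts. Raw counts of Adamtsl2 were 9, 29 and 9 in WT and 21, 23 and 32 in DKO. It thus met the count rule through the DKO mice, and its separation carries that selection. Adamtsl5 (0.47 ± 0.23) and Adamtsl3 (0.91 ± 0.48) overlapped between groups. The Adamtsl3 value was 0.12 without DKO 1, and the Adamtsl5 value 0.22 without DKO 2.

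Genes that act on or with these families were followed on lists of known partners, and none passed the adjusted threshold. Their counts are read against 52.9% of all genes tested with a log2 fold change above 0, and 4.96% higher and 2.54% lower at an unadjusted p under 0.05. Of 24 tested activators and regulators of MMPs, 21 had a log2 fold change above 0 (median 0.29), and 4 were higher in DKO and 0 lower at an unadjusted p under 0.05. These included the mast cell chymase Mcpt4 (log2 fold change 0.52 ± 0.16), the urokinase receptor Plaur (0.68 ± 0.23) and the proprotein convertase Furin (0.53 ± 0.20), each by edgeR. Of 11 ADAM relatives, 9 had positive values (median 0.24), and 1, Adam33, was higher at that p (0.55 ± 0.17), followed by Adam19 (0.35 ± 0.17) and Adam22 (0.41 ± 0.21). Of 5 astacin proteinases and enhancers, 4 were positive (median 0.47), and 2 passed, the procollagen C-proteinase Bmp1 (0.30 ± 0.12) and its enhancer Pcolce2 (0.88 ± 0.25), with Tll1 at 0.47 ± 0.23. Of 22 ADAMTS substrates and partners, 18 were positive (median 0.23), and 3 passed, Thbs2 (0.33 ± 0.12), Ltbp1 (0.42 ± 0.16) and Thbs1 (0.38 ± 0.15). All 9 tested collagen substrates had positive values (median 0.17), 0 of them at an unadjusted p under 0.05, with Col5a1 (0.36 ± 0.17), Col3a1 (0.31 ± 0.17) and Col1a1 (0.40 ± 0.24) having the smallest p.

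Several cell type marker lists differed in summed level between the groups as well. On the composition-normalized scale, the summed skeletal muscle level was 2850 to 3261 in WT and 4735 to 9302 in DKO, and 22 of 30 muscle genes were higher at an unadjusted edgeR p under 0.05. Sebocyte genes summed to 1565 to 1860 in WT and 670 to 1343 in DKO. Hair follicle genes summed to 13232 to 15009 in WT and 5574 to 13257 in DKO, with a narrow overlap. Their median log2 fold change was −0.14, and 1 of 13 was lower at an unadjusted edgeR p under 0.05. Keratinocyte genes summed to 8853 to 9573 in WT and 10942 to 14762 in DKO, but went both ways singly. Krt1 and Krt10 were higher and Krt77 and Krt15 lower at an unadjusted p under 0.05, and the median log2 fold change of the 10 genes was 0.20. For dermal fibroblasts, known as a main source of Mmp2, Mmp14 and Timp2, the summed level overlapped, at 6128 to 7676 in WT and 6988 to 10427 in DKO. Of their genes, 10 of 10 had positive log2 fold changes, with a median of 0.24. This was not particular to fibroblasts. Positive were also 7 of 7 mast cell genes (median 0.40), 7 of 8 macrophage genes (0.31) and 7 of 9 endothelial genes (0.24), against 52.9% of all genes. Of 7 T cell and Langerhans cell genes, 1 was positive. The parts that such shifts in tissue make-up have in the values of the members were not tested. On the same scale the MMP sum was 341 to 362 in WT and 394 to 511 in DKO, the TIMP sum 276 to 297 and 282 to 312, the ADAMTS sum 321 to 351 and 354 to 414, and the ADAMTS-like sum 48.1 to 56.5 and 54.8 to 84.2. With length-scaled levels of an equal total per library instead, the ADAMTS sums of the groups overlapped (315 to 358 in WT, 337 to 454 in DKO). The ADAMTS-like sums, which overlapped on the composition-normalized scale, were then barely apart (47.28 to 56.47 in WT, 56.54 to 91.94 in DKO). MMP sums were separated on both scales.

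**Figure D4:**
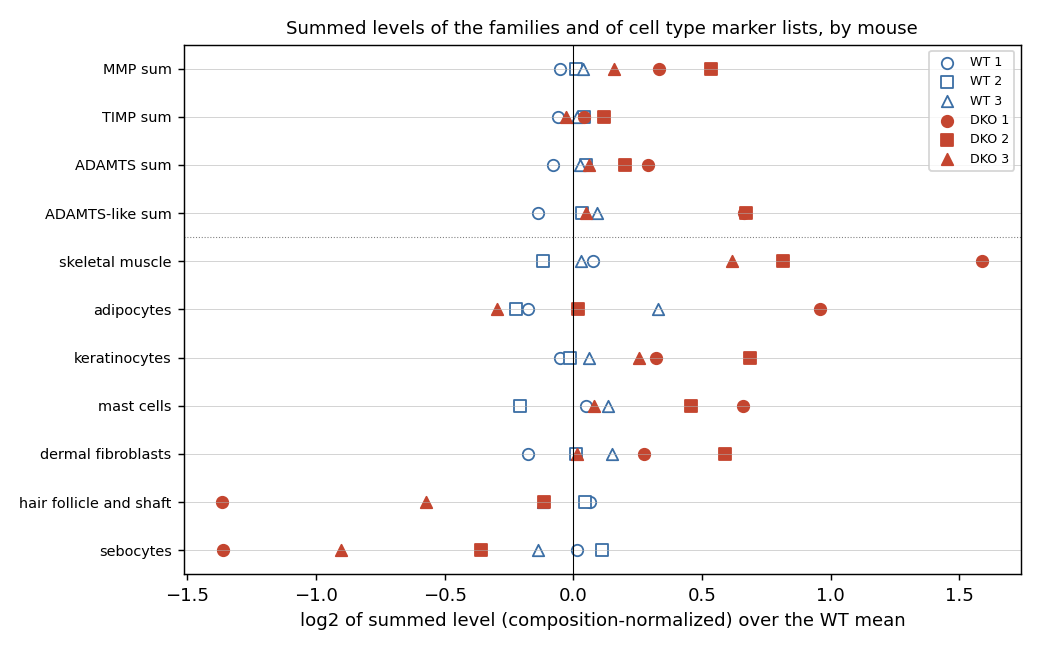
Log2 of the summed level of each family (top) and of 7 cell type marker lists (bottom) over the WT mean, by mouse, with open symbols for WT and filled symbols for DKO. The TIMP and ADAMTS-like sums overlap between groups, whereas skeletal muscle genes are higher and sebocyte genes lower in every DKO mouse.

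The mice of a group did not contribute evenly. Of the 43 members, 16 were highest in DKO 1 (37.2%, against 23.8% of all genes tested), 13 in DKO 2 (30.2% against 29.4%) and 6 in DKO 3 (14% against 11.6%). WT 1 was the lowest library for 18 members (41.9%), against 15.5% of all genes. DKO 1 also had the highest muscle sum and the highest adipocyte sum (3237, against 1429 to 2095 in WT). Without DKO 1, the median log2 fold change of the members was 0.24, 33 log2 fold changes were above 0, and 8 had an unadjusted edgeR p under 0.05. The log2 fold changes of Mmp16 and Mmp19 were 0.03 and 0.02 without it, against 0.32 and 0.38 with it. Of the 43 members, 10 turned direction and 32 turned or moved by over 1.5 times when at least 1 mouse was left out. The 10 were Mmp17, Mmp21, Mmp24, Mmp25, Mmp27, Timp4, Adamts1, Adamts6, Adamts13 and Adamts19. Of the 11 members at an unadjusted p under 0.05, 8 lost it without at least 1 mouse, and Adamts3, Adamts9 and Adamts17 did not. Without WT 1, the count at an unadjusted p under 0.05 was 4, without WT 2 it was 7, and without DKO 3 it was 20.

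Each WT mouse shared the number in its label and its sex with 1 DKO mouse, which gave 3 pairs that were formed after the data were seen. The median log2 ratio of the members was 0.25 for DKO 3 over WT 1, the females, 0.25 for DKO 2 over WT 2 and 0.33 for DKO 1 over WT 3, whereas the medians over all genes tested were −0.004, 0.037 and 0. DKO was the higher mouse in all 3 pairs for 25 members (58.1%, against 17.0% of all genes) and the lower one in all 3 for 3 members (7.0%, against 14.6%), namely Adamts3, Adamts5 and Adamts20. The 25 included Mmp2, Mmp11, Mmp14 and Timp1.

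**Figure D5:**
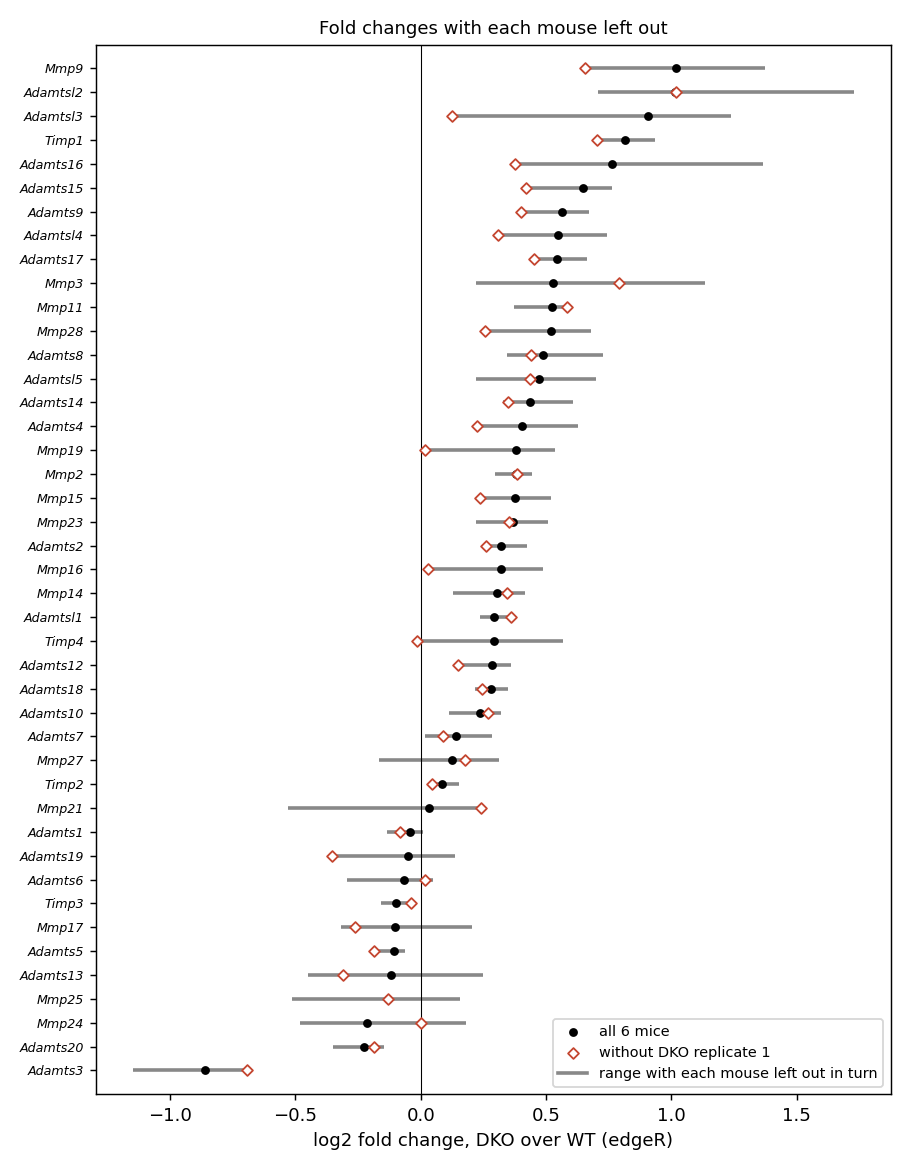
Log2 fold change of each reported member with all 6 mice (black points), its range when each mouse is left out in turn (grey bars) and the value without DKO replicate 1 (open diamonds). Mmp2, Adamts9 and Adamts17 stay above 0 and Adamts3 below 0 throughout, whereas Adamtsl3, Mmp16, Mmp19 and Timp4 come close to 0 without DKO replicate 1.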

How the data were processed

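RNA of full-thickness P4 back skin (3 WT and 3 DKO mice) was rRNA-depleted (QIAGEN FastSelect), prepared with NEBNext Ultra II and sequenced in 150-bp pairs on NovaSeq. The authors deposited raw counts per gene, made according to the submitters' processing notes with Trimmomatic 0.36, STAR 2.5.2b and featureCounts (Subread 1.5.2) on GRCm38. The strand setting and the handling of multi-mapped reads are not given in the sources used here, so antisense and overlapping genes may share reads. The counted gene length stands beside the counts in the deposited tables. In 7 epidermis libraries of 3-week-old mice every gene is at 0, and they were not used.

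Gene IDs were matched to symbols with GENCODE vM21 (48970 of 49315). Genes were filtered with filterByExpr and tested with edgeR 4.0.16 (TMM, quasi-likelihood F test, Benjamini-Hochberg adjustment over 20168 genes, R 4.3.3), and a call needed an adjusted p under 0.05 together with a log2 fold change beyond 1 in either direction. All 43 reported members were tested. SE is derived from the fold change and the F statistic. Normalized counts are counts over effective library size times the mean effective size. Composition-normalized levels divide the length-scaled level by what 1 normalized count is worth in each library, which ranged from 0.865 to 1.10 times the mean. DESeq2 1.42.0, 2 other scalings, library sizes without muscle genes, 2 filters, a block and leaving out each mouse were alternatives. A sex term and a block by label number and sex were added after seeing the data. On simulated counts edgeR recovered 70 of 100 genes changed by a log2 fold of 1 and 99 of 100 changed by 2, with 13 false calls among 20168 genes. Smaller folds were not simulated. The changed genes were drawn from those above 1 CPM on average, so members below that level are not covered. Both groups were simulated with the same dispersion. In the data, DKO mice differed more from each other (chi-square per gene 25.6 to 57.2 between pairs) than WT mice did (8.79 to 12.7).

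Members and lists were chosen with earlier results of these data known. Values in every library are given for the 10 members with the smallest p, the 8 with the highest level, every Timp, Mmp2 and Mmp9, and fold changes for the 3 genes with the smallest p of each list. Each library is 1 mouse. Depth was 11263863 to 17643043 counts, and 3 counts correspond to 0.170 to 0.266 CPM.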

Additional observations from a re-analysis of the deposited data

How the results depend on the processing

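Under all 15 alternatives 0 members had an adjusted p under 0.05, and the lowest adjusted p of any member was 0.117 (Adamts9, no filter on low counts). The median log2 fold change of the members was 0.24 to 0.40 with each mouse left out. The number of members at an unadjusted p under 0.05, 11 with all mice, was 4 to 20 with each mouse left out, 9 with DESeq2 and 8 with total counts. Over all genes, 14 were called. This count was 151 with DESeq2, 22 with total counts, 210 without a filter, 35 with the label number as a replicate block, 4 with a sex term, 50 with the replicate block by label number and sex, and 2 to 36 with each mouse left out. The cause of these shifts was not tested. With each mouse left out, Adamts1 ranged from −0.14 to 0.0079, positive without WT replicate 2, and Timp4 from −0.015 to 0.57, negative without DKO replicate 1. No other member given with values in every library turned direction under any alternative, and none of the 43 did under another scaling.

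The labels do not say what their numbers mark. Deviations from the group mean correlated across genes at 0.23 for the pair that shares 40972 and at −0.02 to 0.17 for pairs that share 47347. Pairs that share no number were lower, at −0.15 to −0.10. As 47347 stands on more than 1 mouse of each group, the number alone did not give each mouse a single partner. The replicate block gave 15 members at an unadjusted p under 0.05, and the block by label number and sex, chosen after seeing the data, gave 16. Pairs sharing number and sex correlated at 0.14 to 0.23, and those sharing the number but not the sex at −0.02 and −0.0083. Deviations within a group cancel out, so a high value in 1 pair goes with lower values in others. These correlations therefore do not test the pairing. Depth limits the members of low count most, such as Mmp3, Mmp9, Mmp24 and Adamts13, whose 95% intervals extend more than 1 log2 unit to each side.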
